A study of Macaca mulatta with 28 samples.

Results

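The genes described here are the membrane-bound adenylyl cyclases, ADCY1 to ADCY9, taken as the rows of the deposited count table that carry these 9 symbols, 9 of the 16885 rows with a symbol. Adenylyl cyclases convert ATP to cyclic AMP (cAMP), the second messenger that activates protein kinase A. They are switched on by Gs-coupled and Golf-coupled receptors and restrained by Gi-coupled receptors, which in the midbrain include the D2 dopamine autoreceptor and the opioid receptors. The isoforms differ in what else they sense. ADCY1, ADCY3 and ADCY8 respond to calcium and calmodulin, ADCY2, ADCY4 and ADCY7 are stimulated by G protein beta-gamma subunits when Gs is active, ADCY5 and ADCY6 are inhibited by calcium, and ADCY9 is the isoform least responsive to forskolin.

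RNA was sequenced from tissue punches of the ventral tegmental area (VTA), where the dopamine neurons that project to the nucleus accumbens have their somata, in 28 male wild-type rhesus macaques (Macaca mulatta) aged 7 to 8.3 years. After an induction with set doses of ethanol, the 17 drinkers chose how much to drink in sessions of 22 h a day. They had 12 months of open access, then repeated periods of abstinence with renewed access between them. The 11 controls were yoked for calories or shared only the housing. Tissue from both arms was taken at the end of a 30 day abstinence period, so no animal of the table was drinking. The drinkers fell into the categories Low (1 animal), Binge (2), Heavy (5) and Very Heavy (9), and the animals came from a cohort 1 of 8 controls and 8 drinkers and a cohort 2 of 3 controls and 9 drinkers. All Binge drinkers belonged to cohort 2 and the Low drinker to cohort 1, and 4 of the 5 Heavy drinkers belonged to cohort 1 while 6 of the 9 Very Heavy drinkers belonged to cohort 2, so category and cohort are partly entangled. The punch is bulk tissue, in which fewer cells of a type and less RNA per cell cannot be told apart. Animals are named below by category and a running number.

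Total counts per animal lay between 12303914 and 27338669, with a median of 22020291, and transcripts of the mitochondrial genome took 36.4% to 60.6% of them. Levels are given as CPM, counts divided by a library size that was scaled by the trimmed mean of M values (TMM) and set to a common total, which is a scale for comparing animals and not genes of different length, so no order of levels among the isoforms is given. The 9 dopamine neuron markers were all counted, and their summed level ran from 20.3 to 1680 CPM over the animals. Among 6109 rows with a median of at least 200 counts, 32 to 89 were at 0 in each of the 8 cohort 1 drinkers, compared with 12 to 43 in the cohort 1 controls and 6 to 26 in the 12 animals of cohort 2. The libraries of Low animal 1, Very Heavy animal 1 and Very Heavy animal 2 had the most such zeros, and values without these 3 are given beside the cohort 1 results of ADCY5, ADCY8 and the CRTC genes.

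How many isoforms the table can speak to was the first question. Of the 9 adenylyl cyclases, 8 had at least 5 counts in at least 3 animals and were tested, and 5 (ADCY3, ADCY4, ADCY5, ADCY8 and ADCY9) had counts in at least 14 of the 28 animals. ADCY4, ADCY8 and ADCY9 were counted in every animal, as were 49.3% of all rows. ADCY7 was at 0 in all 28 animals, as were 7.75% of all rows, and ADCY1, ADCY2 and ADCY6 were at 0 in 24, 25 and 23 animals. Each symbol stands for a single Ensembl transcript in this table. A 0 thus says that the estimated count of the listed transcript rounded to 0, not that the gene was silent. SLC1A2, the main glutamate transporter of astrocytes, was likewise at 0 in every animal, and the neuronal gene RBFOX3 in 27. A count of 0 allows a level of up to 0.112 to 0.238 CPM (3 counts), depending on the depth of the library, for counting error only.

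**Figure D1:**
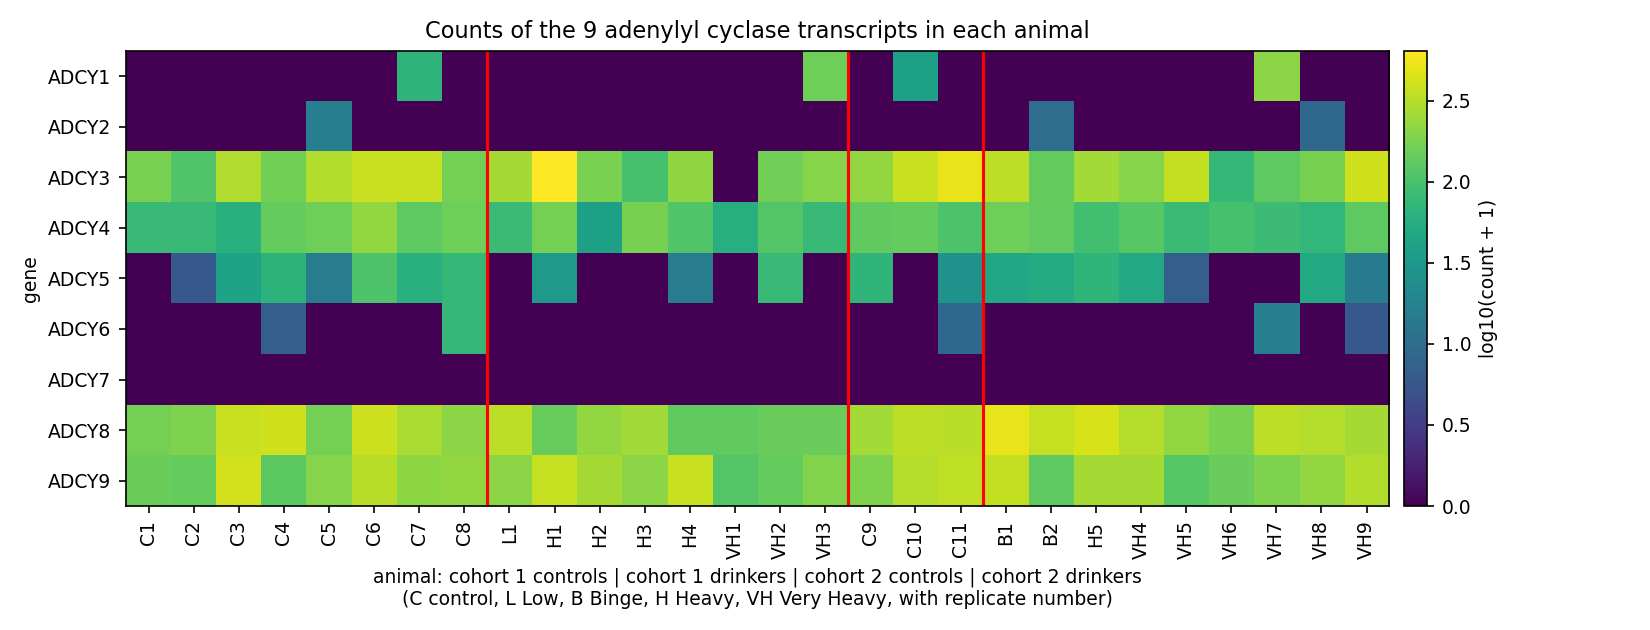
Counts of the 9 adenylyl cyclase transcripts (rows) in the 28 animals (columns), coloured by log10(count + 1), with red lines between cohort 1 controls, cohort 1 drinkers, cohort 2 controls and cohort 2 drinkers. ADCY4, ADCY8 and ADCY9 are counted throughout, ADCY7 is at 0 throughout, and ADCY1, ADCY2 and ADCY6 have counts in only 4, 3 and 5 animals.

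In the Mmul_10 assembly as annotated by RefSeq, the 5 isoforms with counts in at least 14 animals lie on 5 chromosomes. ADCY3 spans chr13:84069839-84171041 on the plus strand and ADCY8 spans chr8:131093099-131357074 on the minus strand. ADCY4 spans chr7:86407614-86423458 on the minus strand, ADCY5 spans chr2:152870248-153034691 on the plus strand, and ADCY9 spans chr20:4008502-4166390 on the minus strand. The ADCY4 span shares 7354 bases with CIDEB on the same strand. On the opposite strand, the ADCY3 span shares 3237 bases with CENPO, the ADCY8 span 3037 bases with LOC114680338, the ADCY2 span 41934 bases with LOC106998646 and the ADCY7 span 2012 bases with BRD7. Whether counting used strand is not given in the sources used here, so reads from such overlaps are uncertain in origin. ADCY1 (chromosome 3), ADCY2 (chromosome 6), ADCY6 (chromosome 11) and ADCY7 (chromosome 20) make up the rest, and RefSeq lists 1 transcript for ADCY2 and 1 for ADCY5 against 6 each for ADCY1 and ADCY3.

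The calcium-stimulated isoforms were represented by ADCY8 and ADCY3. ADCY8, known for its part in calcium-driven synaptic plasticity, was at 12.5 ± 4.14 CPM (SD, n = 28) with a coefficient of variation of 33.2% across animals. ADCY3, the isoform of olfactory neurons that elsewhere in the brain sits in primary cilia, was at 11.1 ± 5.66 CPM (SD, n = 28), with a coefficient of variation of 50.8%. Counting error alone at the median count would give 6.17% for ADCY8 and 6.92% for ADCY3, which leaves out the error of assigning reads to transcripts.

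Among controls, ADCY8 had a lowest, median and highest value of 7.23, 13.1 and 17.6 CPM, and among drinkers of 5.67, 11.8 and 20.6 CPM. The drinkers spanned the whole range of the controls and went beyond it at both ends. The log2 fold change, drinkers minus controls, was -0.10 (SE 0.19, adjusted p = 1, edgeR's quasi-likelihood test with Benjamini-Hochberg adjustment over all 13769 rows tested). ADCY3 had 1 drinker at 0, Very Heavy animal 1, and the other drinkers ran from 3.65 to 26.1 CPM, while the highest control was at 21.6 CPM. Its drinkers had a median of 8.25 CPM and the controls one of 13.5 CPM, with wide overlap, and the log2 fold change was -0.33 (SE 0.38, adjusted p = 1, edgeR). The animal at 0 for ADCY3 was counted for ADCY8 at 8.29 CPM and for ADCY9 at 7.11 CPM. Its library was among those with the most abundant rows at 0, and the part of that in the ADCY3 zero was not tested.

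ADCY1, the neuronal isoform tied to learning, was counted in 4 animals and at 0 in the rest. The counts were 66 in Control animal 7, 38 in Control animal 10, 153 in Very Heavy animal 3 and 210 in Very Heavy animal 7. Each of the 4 combinations of arm and cohort therefore held exactly 1 animal with ADCY1 counts, and no fold change is given for this gene. Where counts were present they were far above the limit that a 0 allows, at 1.66 to 11.4 CPM, so the listed transcript was either counted well or not at all.

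The isoforms stimulated by beta-gamma subunits were represented by ADCY4 alone. The lowest, median and highest ADCY4 values were 2.35, 6.06 and 8.42 CPM in controls and 1.52, 4.68 and 7.75 CPM in drinkers. Most drinkers sat in the lower part of the control range, but the arms overlapped nearly throughout. The mean was 5.86 ± 1.57 CPM (SD, n = 11) in controls and 4.80 ± 1.45 CPM (SD, n = 17) in drinkers, a log2 fold change of -0.29 (SE 0.19, unadjusted p = 0.141, adjusted p = 1, edgeR). ADCY2 had 15 counts in Control animal 5, 9 in Binge animal 2 and 8 in Very Heavy animal 8 and was at 0 elsewhere, and ADCY7 was never counted.

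Of the calcium-inhibited pair, ADCY5, the main cyclase of striatal neurons, was counted in 19 animals and ADCY6 in 5. ADCY5 was at 0 in 2 of 11 controls and in 7 of 17 drinkers. Controls had a median of 1.65 CPM and a highest value of 3.87, and drinkers a median of 0.518 and a highest value of 4.05. Both arms thus ran from 0 to about the same ceiling, and the log2 fold change of -0.72 had an SE of 0.93 (adjusted p = 1, edgeR). Its coefficient of variation over all animals was 101%, the widest of the 5 well counted members, where counting error at the median of 20 counts would give 22.4%. ADCY6 had 73 counts in Control animal 8, 15 in Very Heavy animal 7, 8 in Control animal 11, 6 in Control animal 4 and 5 in Very Heavy animal 9.

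ADCY9, a broadly expressed isoform, varied least, with a coefficient of variation of 28.1% over all animals. Controls ran from 5.40 to 16.0 CPM (mean 10.9 ± 3.07, SD, n = 11) and drinkers from 5.87 to 16.0 CPM (mean 10.2 ± 2.94, SD, n = 17). The ranges nearly coincided, and the log2 fold change was -0.09 (SE 0.16, adjusted p = 1, edgeR).

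Over all 28 animals, 0 of the 8 tested adenylyl cyclases passed an adjusted p of 0.05 between drinkers and controls in edgeR, where 0% of all rows tested did. By unadjusted p under 0.05 the count was also 0 of 8, against 4.57% of all rows. DESeq2's Wald test and limma-voom called 0 members as well. The DESeq2 total over all rows is given in the last section, and that of limma-voom is not given. The fitted log2 fold change of all 5 well counted members was below 0, with a median of -0.29 against 0.0015 over all rows tested. None of these differences passed the test, and for each of the 5 the range of drinkers overlapped that of controls.

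The cohorts, which hold different shares of drinkers, were then taken apart. In cohort 1, the lowest, median and highest ADCY8 values were 7.23, 13.0 and 17.6 CPM in the 8 controls and 5.67, 7.89 and 17.9 CPM in the 8 drinkers. In cohort 1, 6 of the 8 drinkers lay under 10 CPM, compared with 2 of the 8 controls, and the Low drinker, at 17.9 CPM, lay above every control of its cohort. The log2 fold change was -0.48 (SE 0.22, unadjusted p = 0.0376), and the adjusted p in edgeR was 0.295. Without the Low drinker it was -0.70 with an adjusted p of 0.0818 in edgeR, the lowest adjusted p over the fits that left out 1 animal. Without the 3 libraries with the most zeros, the Low drinker among them, it was -0.70 (adjusted p = 0.175, edgeR), and with a trend on GC content removed from each library it was -0.44 (adjusted p = 0.499, edgeR).

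The cell type markers had 0 calls by adjusted p in cohort 1 in edgeR, where 0.959% of all rows tested were called. By unadjusted p under 0.05, 14.7% of all rows passed there. Of the 9 dopamine, 3 GABA, 2 glutamate and 1 serotonin neuron markers tested, 0 passed that limit. The 6 microglia and 5 endothelial markers also gave 0. The sums given next overlapped between the arms. The pan-neuronal sum had a median of 3779 CPM in drinkers (2061 to 6291) and 2159 CPM in controls (1335 to 3952), with 2 of the 4 tested markers higher by unadjusted p under 0.05 and 2 of the 5 listed ones at 0 in at least 14 animals. The oligodendrocyte sum had a median of 16046 CPM in drinkers (11733 to 20419) and 18210 CPM in controls (12296 to 21387), with the fitted log2 fold change of 5 of 6 markers below 0 and 2 of them at unadjusted p under 0.05. CSPG4, of the 2 precursor markers, had a log2 fold change of -0.33 (SE 0.13, unadjusted p = 0.0173, adjusted p = 0.199, edgeR). The astrocyte sum had a median of 678 CPM in drinkers (542 to 793) and 619 CPM in controls (486 to 786), with 3 of the 6 markers at 0 in at least 14 animals, 1 of them in all 28. Of the 4 tested astrocyte markers 1, AQP4, was lower at unadjusted p under 0.05 (adjusted p = 0.101, edgeR), the lowest adjusted p of the marker lists in cohort 1, with counts in 3 of the 8 controls and in 0 of the 8 drinkers. The fitted log2 fold change of the other 3 was above 0. In cohort 2 the pan-neuronal median was 2093 CPM in drinkers (1647 to 2519) and 3576 CPM in controls (2129 to 3740), the reverse order of cohort 1, with 1 marker lower at unadjusted p under 0.05. By that p, 2% of all rows passed in cohort 2. The part of these markers in the ADCY8 values was not tested.

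In cohort 2, ADCY8 was at 12.2, 13.7 and 14.5 CPM in the 3 controls and ran from 8.63 to 20.6 CPM in the 9 drinkers, with a median of 14.2. The controls sat within the range of the drinkers, and the log2 fold change was 0.13 (SE 0.30, adjusted p = 1, edgeR). The difference between the cohorts in drinkers minus controls was 0.62 (SE 0.37, unadjusted p = 0.109, adjusted p = 0.663, edgeR), so the fitted values pointed opposite ways in the 2 cohorts but that contrast did not pass the test. Without the 3 libraries with the most zeros it was 0.83 (SE 0.35, unadjusted p = 0.026, adjusted p = 0.394, edgeR).

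**Figure D2:**
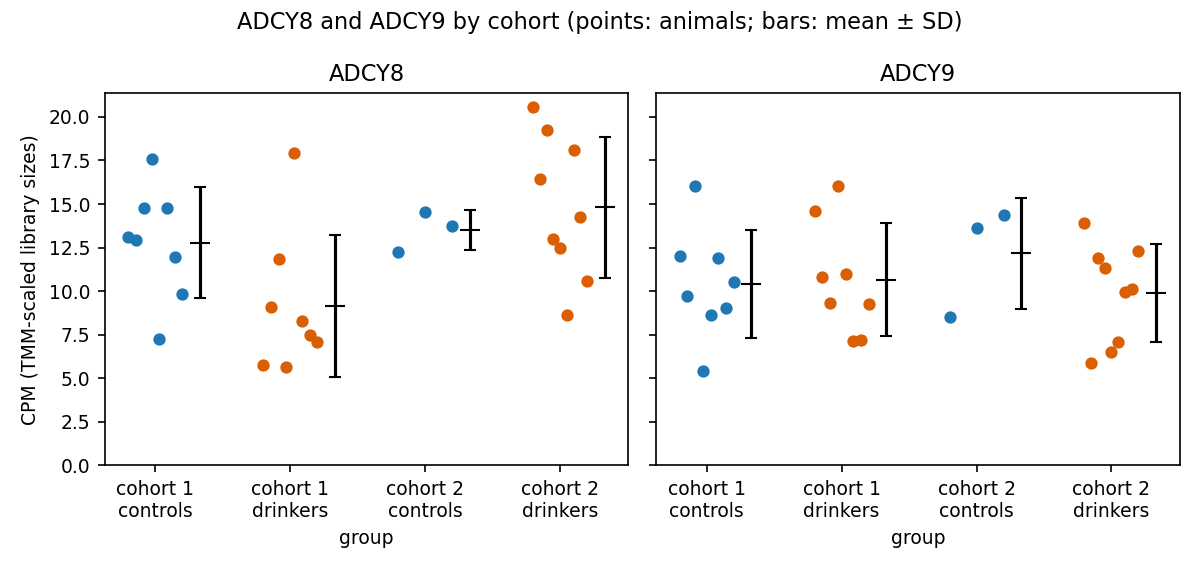
CPM of ADCY8 and ADCY9 (y axis, TMM-scaled library sizes) in each animal by cohort and arm (x axis), with bars for the mean ± SD. In cohort 1 the ADCY8 mean is 9.14 CPM in drinkers and 12.8 CPM in controls, and in cohort 2 it is 14.8 and 13.5 CPM, while the ADCY9 means are 10.7 and 10.4 CPM in cohort 1 and 9.88 and 12.2 CPM in cohort 2.

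No other well counted member differed between the arms of a cohort by as much relative to its SE as ADCY8 did in cohort 1. ADCY9 had a log2 fold change of 0.04 (SE 0.22) in cohort 1 and -0.30 (SE 0.28) in cohort 2. ADCY4 had -0.33 (SE 0.26) in cohort 1 and -0.19 (SE 0.34) in cohort 2, below 0 in both but with overlapping ranges. ADCY3 had -0.21 (SE 0.50) in cohort 1 and -0.65 (SE 0.65) in cohort 2. Leaving out 1 animal moved the ADCY4 value between -0.46 (without Heavy animal 3) and -0.19 (without Heavy animal 2) in cohort 1. In cohort 2, with its 3 controls, the extremes came from leaving out Control animals 9 and 11, at -0.11 and -0.33 for ADCY4, -0.50 and -0.16 for ADCY9 and -0.87 and -0.37 for ADCY3. The cohort 1 value of ADCY3 rested on single animals, since it was -0.59 without Heavy animal 1, the highest drinker at 26.1 CPM, and -0.01 without Very Heavy animal 1, the drinker at 0.

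ADCY5 was at 0 in 5 of 8 drinkers of cohort 1 and in 1 of 8 controls, and in cohort 2 in 2 of 9 drinkers and 1 of 3 controls. The 3 cohort 1 drinkers with counts were Very Heavy animal 2 at 4.05 CPM, Heavy animal 1 at 1.30 CPM and Heavy animal 4 at 0.602 CPM, while the cohort 1 controls reached 3.87 CPM. The log2 fold change was -1.36 (SE 1.27, adjusted p = 0.737, edgeR) in cohort 1 and -0.05 (SE 1.66, adjusted p = 1, edgeR) in cohort 2. Leaving out 1 animal moved the cohort 1 value between -2.78 and -1.13. Without the 3 libraries with the most zeros, which include Very Heavy animal 2, the cohort 1 value was -2.31 (adjusted p = 0.527, edgeR). Abundant rows at 0 numbered 32 to 89 in the cohort 1 drinkers and 12 to 43 in the cohort 1 controls, overlapping ranges, and the part of that in the ADCY5 zeros was not tested.

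By adjusted p, 0 of 8 members were called in edgeR in cohort 1, where 0.959% of all rows tested were, and 0 of 8 in cohort 2, where 0% were. By unadjusted p under 0.05, 3 members were lower in cohort 1 drinkers (ADCY8 and the sparsely counted ADCY2 and ADCY6), against 8.14% of all rows lower and 14.7% in either direction. ADCY2 and ADCY6 reached that p with 0 counts in all 8 cohort 1 drinkers and counts in only 1 and 2 of the cohort 1 controls. In cohort 2 the count by unadjusted p was 0 of 8, against 2% of all rows. For the difference between cohorts it was 1 of 8, again ADCY2, against 9.62% of all rows, and 0 were called by adjusted p where 0.0145% of all rows were. DESeq2 and limma-voom called 0 members in these 3 comparisons. The DESeq2 totals over all rows in cohort 1 and in the difference between cohorts are given below with the pathway genes. Its total in cohort 2 and those of limma-voom are not given.

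**Figure D3:**
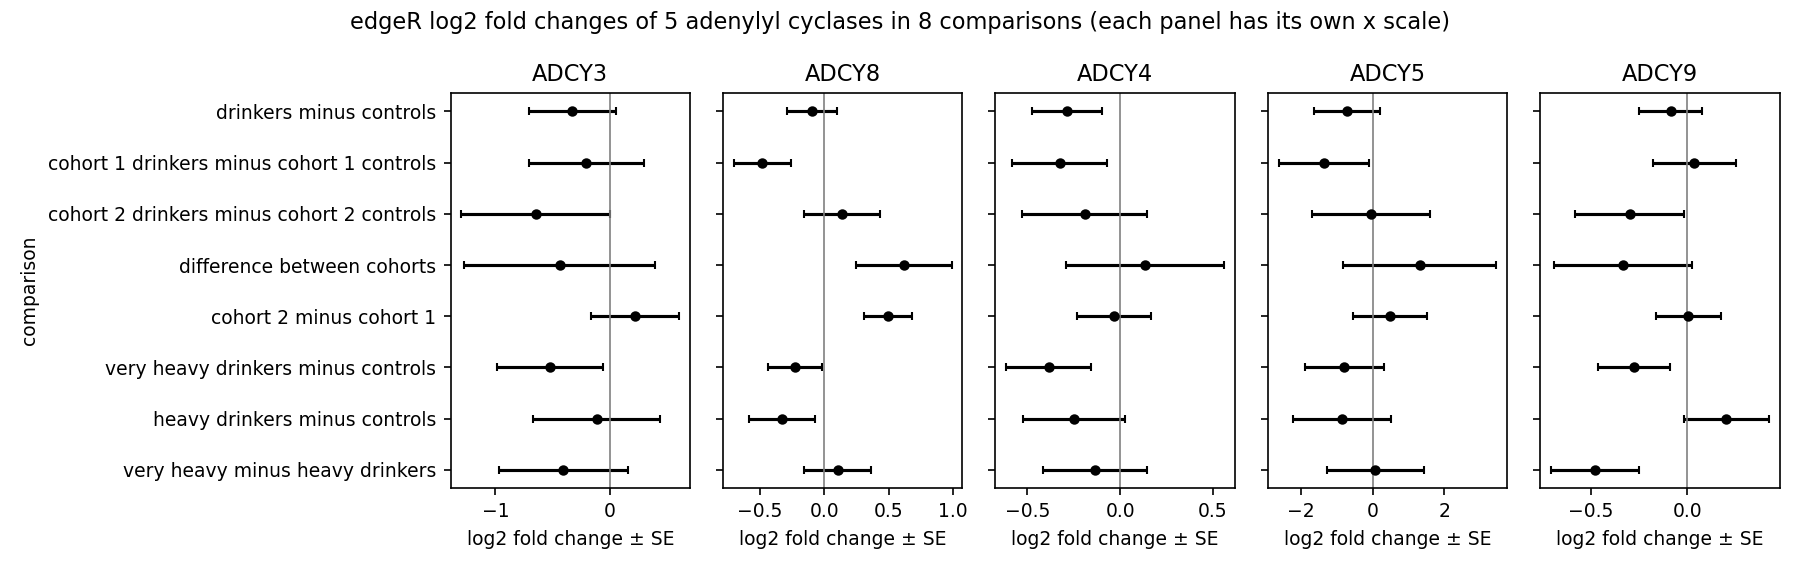
Fitted log2 fold changes ± SE (x axis, a separate scale in each panel) of the 5 well counted adenylyl cyclases in the 8 comparisons (y axis). The ADCY8 values furthest from 0 relative to their SE are -0.48 in cohort 1 and 0.49 between the cohorts, and the ADCY5 bars are the widest.

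Between the cohorts themselves, with the arm held in the fit, ADCY8 had the largest difference of the 8 tested members relative to its error. It was at 11.0 ± 4.00 CPM (SD, n = 16) in cohort 1 and 14.5 ± 3.55 CPM (SD, n = 12) in cohort 2, a log2 fold change, cohort 2 minus cohort 1, of 0.49 (SE 0.18, unadjusted p = 0.0119). The adjusted p in edgeR was 0.298, so it did not pass. The value stayed between 0.43 and 0.63 when each animal was left out, and the medians of the 2 cohorts were 7.89 and 14.2 CPM in drinkers and 13.0 and 13.7 CPM in controls. ADCY9 (0.01, SE 0.17), ADCY4 (-0.03, SE 0.20) and ADCY3 (0.22, SE 0.39) were near 0 or within their error. In edgeR, 0 of 8 members were called between cohorts, where 0.0436% of all rows were, and by unadjusted p the count was 1 of 8, against 9.8%. DESeq2's Wald test called ADCY1 here, a gene with counts in 2 animals of each cohort, among 121 calls over all rows, and limma-voom called 0 members and 23 rows in all. Anything else that differed between the 2 cohorts cannot be told apart from the cohort itself.

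Of the cell type markers, 0 were called between cohorts in edgeR, where 0.0436% of all rows were. By unadjusted p under 0.05, 8 markers passed, against 9.8% of all rows. Of the 3 GABA neuron, 1 serotonin neuron, 6 microglia and 5 endothelial markers tested, 0 passed. Higher in cohort 2 were 3 of the 4 tested astrocyte markers, 1 of the 2 oligodendrocyte precursor markers, 1 of the 2 glutamate neuron markers and 1 of the 4 tested pan-neuronal markers, and lower were 1 of the 9 dopamine neuron and 1 of the 6 oligodendrocyte markers. The precursor marker, CSPG4, had the lowest adjusted p (0.105, edgeR), with a log2 fold change of 0.45 (SE 0.10). The summed astrocyte markers had a median of 651 CPM in cohort 1 (486 to 793) and 749 CPM in cohort 2 (539 to 1248), and the summed precursor markers one of 54.9 CPM (17.0 to 65.2) and 60.4 CPM (48.6 to 77.2). The part of these markers in the ADCY8 difference between cohorts was not tested.

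Across drinking categories, the Low and Binge animals were among those with the highest ADCY8 levels. The Low animal was at 17.9 CPM and the Binge animals at 16.4 and 20.6 CPM, and only Heavy animal 5 (19.3 CPM) and Very Heavy animal 7 (18.1 CPM) among the other drinkers reached that range. Heavy drinkers ran from 5.67 to 19.3 CPM with a median of 9.09, and Very Heavy drinkers from 7.06 to 18.1 CPM with a median of 10.6. Within the Heavy and Very Heavy categories the cohort 2 animals ran from 8.63 to 19.3 CPM and the cohort 1 animals from 5.67 to 11.8 CPM. With 1 and 2 animals, Low and Binge are given by value only. The log2 fold change was -0.33 (SE 0.25, adjusted p = 0.928) for Heavy drinkers minus controls and -0.23 (SE 0.21, adjusted p = 1) for Very Heavy drinkers minus controls, both in edgeR. Leaving out 1 animal moved the Heavy value between -0.67, without Heavy animal 5, and -0.17, without Heavy animal 1, with a lowest adjusted p of 0.453 in edgeR.

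Of the well counted members, ADCY9 had the lowest p between the Heavy and Very Heavy categories. Heavy drinkers were at 14.6, 10.8, 9.34, 16.0 and 11.9 CPM, and Very Heavy drinkers ran from 6.53 to 12.3 CPM with a median of 9.25. The categories overlapped between 9.34 and 12.3 CPM, and controls, at 5.40 to 16.0 CPM, covered both. The log2 fold change, Very Heavy minus Heavy, was -0.48 (SE 0.23, unadjusted p = 0.0445), and the adjusted p in edgeR was 0.714. Leaving out each animal kept it between -0.57 and -0.38.

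**Figure D4:**
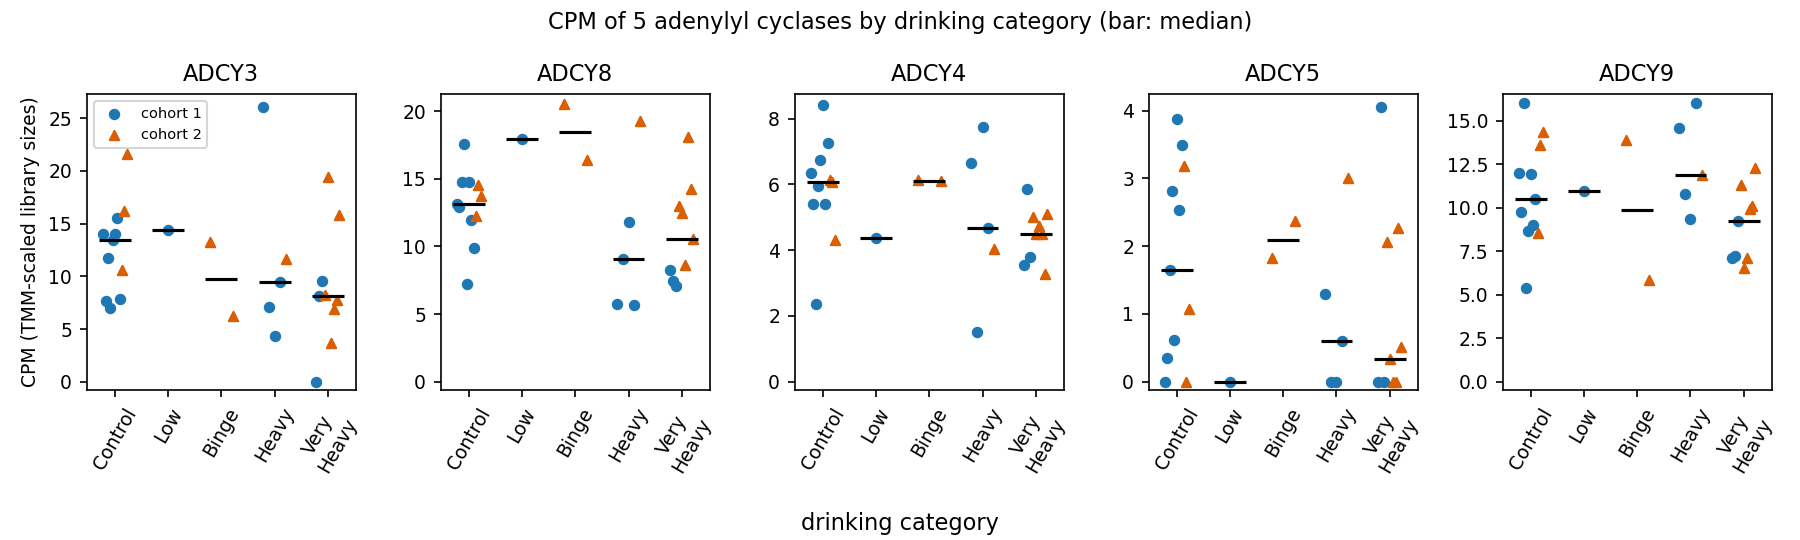
CPM (y axis, TMM-scaled library sizes) of the 5 well counted adenylyl cyclases by drinking category (x axis), 1 point per animal with cohort 1 as circles and cohort 2 as triangles, and a bar at the median. The Low and Binge animals lie between 16.4 and 20.6 CPM for ADCY8, and Heavy drinkers have a higher ADCY9 median, 11.9 CPM, than Very Heavy drinkers, 9.25 CPM.

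ADCY4 was at 3.27 to 5.87 CPM in Very Heavy drinkers, with a median of 4.51, all below the control median of 6.06. The log2 fold change, Very Heavy minus controls, was -0.39 (SE 0.23, unadjusted p = 0.103, adjusted p = 1, edgeR), and the 2 Binge animals, at 6.10 and 6.13 CPM, lay at the control median. ADCY3 had a median of 8.10 CPM in Very Heavy and 9.50 CPM in Heavy drinkers, and its log2 fold change was -0.52 (SE 0.46, adjusted p = 1, edgeR) and -0.12 (SE 0.55, adjusted p = 0.998, edgeR) against controls. The Heavy value turned from -0.63 without Heavy animal 1 to 0.09 without Heavy animal 3, the lowest of that category.

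In edgeR, 0 of 8 members were called by adjusted p for Very Heavy minus controls, for Heavy minus controls and for Very Heavy minus Heavy, where 0%, 0% and 0% of all rows were. By unadjusted p under 0.05 the counts were 0 of 8 against 4.62% of all rows, 1 of 8 (ADCY6) against 7.15%, and 2 of 8 (ADCY1 and ADCY9) against 6.8%. DESeq2's Wald test called 1 member, ADCY1, in the comparisons with Heavy drinkers, in whom it was at 0 in all 5 animals, and limma-voom called none of the 8. Over all rows DESeq2 called 48 in Heavy minus controls and 54 in Very Heavy minus Heavy. The totals of limma-voom are not given. These 3 comparisons share animals with each other and with the ones above.

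Correlations among the members across animals were mostly weak. Over the 28 animals the highest Spearman coefficient among the 5 well counted isoforms was 0.53 for ADCY3 with ADCY9 (Pearson 0.42), on log2 CPM, and the other 9 pairs lay between -0.06 and 0.27. Among 7231 rows with at least 20 counts in every animal, the row most like ADCY9 was FRRS1L, with a Spearman coefficient of 0.83 (Pearson 0.82). The closest rows were NRXN2 for ADCY8 (0.64, Pearson 0.66), KCNA4 for ADCY3 (0.71, Pearson 0.37), MIDEAS for ADCY4 (0.64, Pearson 0.43) and CELF1 for ADCY5 (0.57, Pearson 0.23). Each of these is the highest coefficient over all candidate rows, over animals that differ in library depth and in the sums of the cell type markers. They are descriptions only. Against the summed dopamine neuron markers the Spearman coefficients of the 5 members ran from -0.17 to 0.07. Over the sums of all 10 cell type lists they ran from -0.37 to 0.39, both ends for ADCY4, with the serotonin neuron markers (Pearson -0.62) and the GABA neuron markers (Pearson 0.44). The serotonin sum was near 0, with a median of 0.361 CPM, a highest value of 10.4 CPM and 2 of its 3 markers at 0 in at least 14 animals. ADCY3 had a Pearson coefficient of 0.61 with the oligodendrocyte precursor markers but a Spearman coefficient of -0.10. ADCY4 also had coefficients of 0.37 with the oligodendrocyte, 0.36 with the microglia and -0.35 with the glutamate neuron markers, and ADCY9 had -0.35 with the oligodendrocyte markers.

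The other genes of the pathway came from lists that hold 60 genes, of which 57 are in the table and 51 were tested. These cover the G protein alpha subunits, protein kinase A subunits, A-kinase anchoring proteins, phosphodiesterases, cAMP effectors and targets, calmodulin and its kinases, and PACAP, the peptide that drives the cyclases, with its receptor. In edgeR 0 of 51 passed an adjusted p of 0.05 in each of the 8 comparisons. Limma-voom also called 0, while DESeq2's Wald test called CRTC1, CRTC2 and GNAI3 in cohort 1, CRTC1 in the difference between cohorts, and AKAP1, a row at 0 in 24 animals, in Very Heavy drinkers against controls and against Heavy drinkers. Over all rows DESeq2 called 443 in cohort 1, 152 in the difference between cohorts, and 22 and 54 in these comparisons of Very Heavy drinkers. By unadjusted p under 0.05, 9 of the 51 passed in cohort 1 (3 higher and 6 lower in drinkers), against 14.7% of all rows, and 3 passed over both cohorts (2 higher and 1 lower), against 4.57% of all rows, so both shares were near those of all rows. The median log2 fold change of the 51 was -0.02 between drinkers and controls and -0.03 in cohort 1.

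The lowest p-values of the pathway in cohort 1 belonged to the 3 CREB-regulated transcription coactivators, which enter the nucleus when cAMP and calcium rise and switch on CREB targets. CRTC1 ran from 27.9 to 48.5 CPM in cohort 1 drinkers (median 37.4) and from 45.5 to 50.7 CPM in cohort 1 controls (median 47.8). CRTC2 ran from 47.4 to 65.0 CPM in these drinkers (median 59.4) and from 61.6 to 85.5 CPM in these controls (median 68.3). CRTC3 ran from 67.9 to 95.2 CPM in these drinkers (median 80.8) and from 76.8 to 112 CPM in these controls (median 93.7). The ranges of all 3 overlapped, with the drinkers toward the low end.

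In edgeR the cohort 1 log2 fold changes were -0.35 (SE 0.10, adjusted p = 0.0743) for CRTC1, -0.29 (SE 0.07, adjusted p = 0.0524) for CRTC2 and -0.24 (SE 0.07, adjusted p = 0.0981) for CRTC3, none past the threshold. Calls were made under some settings and not under others. DESeq2 gave CRTC1 an adjusted p of 0.0335 and CRTC2 one of 0.0157, and in edgeR CRTC2 passed without mitochondrial transcripts (adjusted p = 0.0477) and with at least 10 counts in every animal (adjusted p = 0.0481). Leaving out Low animal 1 brought CRTC1 to an adjusted p of 0.0307, leaving out Control animal 6 brought CRTC2 to 0.0405, and leaving out Control animal 3 brought CRTC3 to 0.048, all in edgeR. In the other direction, the fit of cohort 1 alone gave CRTC1, CRTC2 and CRTC3 adjusted p of 0.16, 0.191 and 0.319 in edgeR. Without the 3 libraries with the most zeros the log2 fold changes were -0.34, -0.32 and -0.18, with adjusted p of 0.117, 0.115 and 0.3 in edgeR. With the trend on GC content removed they were -0.18, -0.15 and -0.21, with adjusted p of 0.586, 0.551 and 0.249 in edgeR. In cohort 2 CRTC1 was 0.24 (SE 0.13, adjusted p = 1, edgeR), and the difference between cohorts was 0.59 for CRTC1, 0.35 for CRTC2 and 0.42 for CRTC3 (adjusted p of 0.216, 0.337 and 0.258, edgeR). With the GC trend removed the difference was 0.39, 0.19 and 0.37 (adjusted p of 0.581, 0.887 and 0.533, edgeR).

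**Figure D5:**
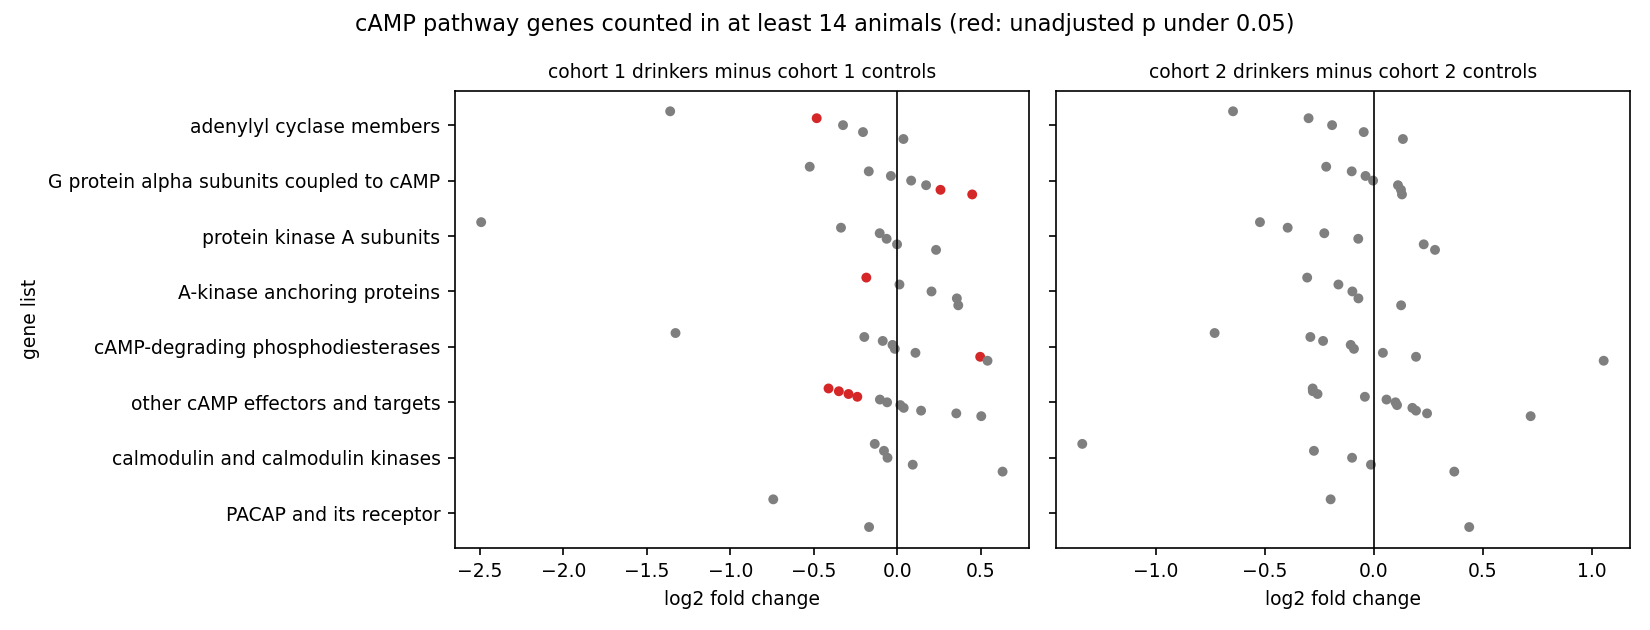
Log2 fold changes (x axis) of the cAMP pathway genes counted in at least 14 animals, by list (y axis), in cohort 1 (left) and cohort 2 (right), with genes of unadjusted p under 0.05 in red. The cluster of red points to the left of 0 among the effectors and targets in cohort 1 holds CRTC1, CRTC2 and CRTC3, from -0.35 to -0.24, with RAPGEF3 at -0.41.

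The G protein side showed GNAI3, an inhibitory alpha subunit that restrains the cyclases, at 40.9 to 60.1 CPM in controls (median 51.6) and 47.8 to 75.2 CPM in drinkers (median 55.7). Its log2 fold change was 0.18 (SE 0.07, unadjusted p = 0.012, adjusted p = 0.84, edgeR) over all animals, and 0.10 (unadjusted p = 0.103, adjusted p = 1, edgeR) with the GC trend removed. PDE7B, a cAMP-specific phosphodiesterase, was at 4.32 ± 1.27 CPM (SD, n = 11) in controls and 5.73 ± 1.73 CPM (SD, n = 17) in drinkers, with a log2 fold change of 0.41 (SE 0.18, adjusted p = 1, edgeR). CRTC2 was the other pathway gene of lowest p over all animals, with a log2 fold change of -0.16 (SE 0.06, unadjusted p = 0.0201, adjusted p = 1, edgeR), or -0.087 with the GC trend removed. It had the lowest p of the pathway in Heavy drinkers minus controls, at -0.29 (SE 0.09, unadjusted p = 0.0027, adjusted p = 0.554, edgeR), or -0.19 with the GC trend removed, and stood at 0.20 (SE 0.09, adjusted p = 0.691, edgeR) in Very Heavy minus Heavy drinkers. None of these passed, and drinkers and controls overlapped in GNAI3 and PDE7B. In cohort 1, where DESeq2's Wald test called GNAI3 and edgeR did not, DESeq2 gave it a log2 fold change of 0.28 (adjusted p = 0.0404). In Very Heavy drinkers minus controls, GNAI3 had one of 0.20 (SE 0.08, adjusted p = 0.85, edgeR), or 0.13 with the GC trend removed. GNAS, the stimulatory alpha subunit, had one of 0.32 (SE 0.17, adjusted p = 1, edgeR) in that comparison. In Very Heavy minus Heavy drinkers, GNAL, the Golf alpha subunit, had one of -0.67 (SE 0.29, adjusted p = 0.677, edgeR).

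Between the cohorts the lowest p-values of the pathway were those of PRKAR1A, a regulatory subunit of protein kinase A, and ADCYAP1, which encodes PACAP. PRKAR1A was at 42.1 ± 17.6 CPM (SD, n = 16) in cohort 1 and 72.4 ± 29.4 CPM (SD, n = 12) in cohort 2, a log2 fold change of 0.76 (SE 0.24, adjusted p = 0.209, edgeR). ADCYAP1 was at 3.23 ± 2.15 CPM (SD, n = 16) in cohort 1 and 6.08 ± 4.01 CPM (SD, n = 12) in cohort 2, a log2 fold change of 1.06 (SE 0.41, adjusted p = 0.324, edgeR). The ADCYAP1 medians of cohorts 1 and 2 were 2.36 and 5.90 CPM in drinkers, but 3.45 and 1.53 CPM in controls, where 1 of the 3 cohort 2 animals was at 11.5 CPM. With limma-voom the ADCYAP1 value was 0.82 (unadjusted p = 0.0621, adjusted p = 0.424). AKAP8, an anchoring protein of the nucleus, had a log2 fold change, cohort 2 minus cohort 1, of 0.15 (SE 0.06, adjusted p = 0.345, edgeR). Several other rows of the pathway with low p-values, PDE4D, PDE1C, PDE7A, AKAP1 and PPP1R1B among them, were at 0 in 22 to 25 animals and are given no fold change.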

How the data were processed

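RNA came from VTA punches of 28 macaques, prepared with the Nugen Universal Plus mRNA kit. The authors trimmed reads with Trim Galore 0.6.7 and quantified them with Salmon 1.9.0 on Mmul_10. Per the labels and file, the deposited values are estimated counts that were not normalized, with 1 Ensembl transcript per gene symbol. These counts were rounded to whole numbers. The 1 row of 16886 without a symbol held 1.16e-05% of counts and was left out. Groups follow the labelled drinking phenotype. Cohort is not labelled: it was taken from the study's source data for drinkers and, for controls, inferred from the recordings in which they appear.

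The 13769 rows that reached 5 counts in 3 or more animals were tested with edgeR 4.0.16 (TMM, quasi-likelihood, Benjamini-Hochberg at 0.05) in R 4.3.3. SE is the fold change over the square root of F. Fits used all 28 animals with terms for arm, cohort by arm, arm plus cohort, or category. P-values measure spread between animals, 1 library each. No pair of libraries had more than 1.77% identical counts. The tests were checked on simulated counts. Members and lists were chosen with earlier results of these data known. Well counted means counts in at least 14 animals, a limit set after seeing the counts. Named pathway genes are the 3 with the lowest p in each comparison, and those called. The alternatives were DESeq2 1.42.0, limma 3.58.1 (voom), other size factors and filters, cohort terms and single animals left out. The GC trend (lowess, span 0.3, on RefSeq transcripts, known for 96.7% of tested rows) and the fit without 3 libraries were added after seeing the data.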

Additional observations from a re-analysis of the deposited data

Results flagged for a closer look

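Within groups of 4 to 10 animals, an animal stood apart from its group in 9 of the 35 member and group combinations with any spread, by the gap to its nearest neighbour against the group's range (Dixon's test at 95%). Chance marks about 1 in 20 groups of continuous, independent values. That rate does not hold here, since the groups share animals and in 5 of the 9 all animals but 1 were at 0, which makes the gap equal to the range by construction. Of the 9, 8 fell on the sparsely counted ADCY1, ADCY2 and ADCY6. ADCY1 was at 2.78 CPM in Control animal 7 among cohort 1 controls, at 7.45 CPM in Very Heavy animal 3 among cohort 1 drinkers and at 11.4 CPM in Very Heavy animal 7 among cohort 2 drinkers, with all others of each group at 0. ADCY2 was at 0.363 CPM in Very Heavy animal 8 among Very Heavy drinkers and at 0.658 CPM in Control animal 5 among cohort 1 controls, again with all others at 0. ADCY6 was at 3.44 CPM in Control animal 8 among cohort 1 controls, where the next was at 0.259 CPM, and at 0.814 CPM in Very Heavy animal 7, both among Very Heavy drinkers and among cohort 2 drinkers, where the next was at 0.199 CPM. ADCY5 was at 4.05 CPM in Very Heavy animal 2 among cohort 1 drinkers, where the next was at 1.30 CPM. Very Heavy animal 7 thus held the highest ADCY1 level of all animals and the highest ADCY6 level among drinkers. No sample of ADCY3, ADCY4, ADCY8 or ADCY9 stood apart in this way.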

How the results depend on the processing

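No member was called in edgeR under any alternative normalization, filter, covariate or set of animals, nor with limma-voom. DESeq2's Wald test called 1 member, ADCY1, in cohort 2 minus cohort 1, in Heavy drinkers minus controls and in Very Heavy minus Heavy drinkers, where it called 121, 48 and 54 rows in all. Of 339 fold changes of the 5 well counted members under alternatives other than leaving out 1 animal, 324 kept their sign and 15 did not. These 15 were, for limma-voom, ADCY5 in cohort 2 (0.58), ADCY3 in the difference between cohorts (0.20), ADCY4 between cohorts (0.065) and ADCY4 (0.063) and ADCY5 (-0.10) in Very Heavy minus Heavy drinkers. With drinkers alone, ADCY4 between cohorts was 0.0088 and ADCY9 was -0.11. ADCY9 between cohorts was -0.0104 with DESeq2 and with the GC trend removed, -0.0105 with other size factors, -0.0050 with at least 10 counts in every animal and -0.073 without the 3 libraries with most zeros. In Very Heavy minus Heavy drinkers, ADCY8 was -0.13 with cohort as a covariate and ADCY5 was -0.40 without those 3 libraries. ADCY4 in the difference between cohorts was -0.021 with the GC trend removed. The cause was not tested. Leaving out 1 animal kept the sign of 1079 of 1120 values. The ranges that crossed 0 were, for Heavy drinkers minus controls, ADCY3 at -0.63 to 0.094. For Very Heavy minus Heavy drinkers they were ADCY3 at -0.64 to 0.11, ADCY4 at -0.37 to 0.085, ADCY5 at -0.59 to 1.10 and ADCY8 at -0.060 to 0.44. Between cohorts they were ADCY4 at -0.12 to 0.053 and ADCY9 at -0.060 to 0.079. The others were ADCY4 in the difference between cohorts at -0.012 to 0.27, ADCY5 in cohort 2 at -0.63 to 1.34 and ADCY9 in cohort 1 at -0.071 to 0.16. Over all rows, calls in cohort 1 numbered 132 in edgeR, 443 with DESeq2, 192 with at least 10 counts in every animal, 5 with the cohort fitted alone, 6 with the GC trend removed and 19 without the 3 libraries, and between drinkers and controls 0 in edgeR and 11 with DESeq2. No paired analysis was possible because the labels used here do not say which control was yoked to which drinker, and replicate numbers follow accession order. ADCY1, ADCY2, ADCY6 and ADCY7 were at 0 in 23 or more animals, so their fold changes are not compared. ADCY1 was at 0 in the deepest library too, and the part of depth in these zeros was not tested.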
